A study of Mus musculus with 4 samples.

Results

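The 63 protein-coding serpin genes of the mouse genome were examined for called peaks of H3K23pr, a propionyl mark on lysine 23 of histone H3, in liver. Members were the protein-coding genes of the RefSeq table for GRCm38 whose symbols run from Serpina to Serpini followed by a number, 63 of 21887 genes on assembled chromosomes. Clade A held 24 of them, clade B 28, clade E 3, clades F and I 2 each, and clades C, D, G and H 1 each. The angiotensinogen gene belongs to the serpins by descent but carries no serpin symbol and was not a member, nor were 6 serpin pseudogenes.

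Serpins are proteins that, in most cases, trap a protease by offering it a reactive loop as bait and then folding around it. Hepatocytes secrete many clade A members and the regulators of coagulation, fibrinolysis and complement, and a few serpins carry hormones and inhibit nothing. Clade B members stay mostly inside cells and protect leukocytes and epithelia from proteases. Many serpins lie in tandem arrays that arose by gene duplication, so neighbouring copies can be nearly identical. Acylation of histone tails, including propionylation, is generally linked to active chromatin.

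The study had 1 IP library and 1 input library from each of a pair of genotypes, and the input was used only as the caller's control. WT stands for liver of male C57BL/6 mice with floxed RPN11 alleles (flox/flox), and KO for liver of male C57BL/6 mice in which RPN11 was deleted in hepatocytes. RPN11, encoded by Psmd14, is a deubiquitylating enzyme of the proteasome lid. Age, diet, the driver of the deletion and any pooling of animals are not given in the sources used here, and KO liver still holds RPN11 in its other cell types. With 1 library per genotype there was no replicate check, every difference is one between these libraries, and no p-value was computed. After the caller's filter 13615838 WT and 15468265 KO fragments of IP remained, and the lists held 54397 and 41907 peaks. Fragments of the IP averaged 97 bp for WT but 71 bp for KO, and the part of this in any difference was not tested. Intervals are exact 95% intervals that cover counting error only.

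Peaks did not check the knockout, because where the loxP sites lie in Psmd14 is not given in the sources used here. The window of Psmd14 held 7 WT and 10 KO peaks. The labelled tissue could not be checked by expression either. Of 10 hepatocyte marker genes, 4 had a WT peak and 7 a KO peak, where the share of all genes of like length would give 4.10 and 2.90. For Kupffer cells the counts were 3 and 2 of 6 markers, beside 3.06 and 2.15, and for sinusoidal endothelium 2 and 1 of 5, beside 3.02 and 2.30. Stellate cells had 4 and 2 of 5, beside 2.28 and 1.62. Cholangiocytes had 2 and 0 of 4, beside 0.943 and 0.539, and lymphocytes 2 and 1 of 4, beside 1.31 and 0.942.

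The copies of alpha-1 antitrypsin, the main plasma inhibitor of neutrophil elastase, lie in the clade A cluster as a tandem array of near copies. In mouse the gene exists as Serpina1a to Serpina1e, 5 copies on the minus strand of chromosome 12. The stretch before each start site is shown from RefSeq (GRCm38.p6), placed so that the capitals, GTTAAT, one arm of the palindromic binding motif of the liver factor HNF1, stand in the same column:
Serpina1a, chr12:103863625-103863730, minus strand: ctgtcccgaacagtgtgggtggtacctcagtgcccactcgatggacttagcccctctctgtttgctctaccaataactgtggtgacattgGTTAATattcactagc
Serpina1b, chr12:103738200-103738305, minus strand: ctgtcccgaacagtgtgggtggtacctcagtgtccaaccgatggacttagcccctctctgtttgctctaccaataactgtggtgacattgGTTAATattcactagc
Serpina1c, chr12:103904962-103905067, minus strand: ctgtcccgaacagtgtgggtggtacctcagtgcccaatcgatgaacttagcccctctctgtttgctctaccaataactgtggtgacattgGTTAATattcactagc
Serpina1d, chr12:103773634-103773739, minus strand: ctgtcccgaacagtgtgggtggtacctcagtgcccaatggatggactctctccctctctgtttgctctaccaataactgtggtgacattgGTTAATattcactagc
Serpina1e, chr12:103956960-103957065, minus strand: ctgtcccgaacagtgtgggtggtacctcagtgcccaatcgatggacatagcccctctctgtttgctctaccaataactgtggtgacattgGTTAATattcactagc

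Between pairs of these 5 stretches, 2 to 7 of 106 bases differed. The motif began 16 bases before the listed start site in Serpina1d and 78 bases before it in Serpina1e. In the 250 bases before the start site, 25.0% of all runs of 71 bases, the mean KO fragment size, recurred exactly in another serpin promoter for Serpina1d and Serpina1e. For Serpina1a, Serpina1b and Serpina1c the share was 1.11% to 2.22%, so most runs of this length there differed from the other serpin promoters by at least 1 base. Gene bodies and the rest of the genome were not compared. How the aligner placed reads with several matches is not given in the sources used here. GTTAAT on either strand was found in 2113 of 32851 promoters of this length (6.43%), and in 11 of 54 serpin genes with a listed promoter, of which 5 were these copies. The other 6 were Serpina3c, Serpina7, Serpinb3b, Serpinb3d, Serpinb8 and Serpini2. Of the other motifs searched on both strands, CCAAT was in 18 of the 54 genes (33.8% of all promoters), TATAAA in 14 (12.4%) and the HNF4 motif CAAAGTCCA in 0 (0.384%). These are letter matches and not bound sites.

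None of the 5 antitrypsin copies had a peak in either genotype, but the DNA between them did. The copies with 2 kb on both sides covered 0.0704 Mb, where the density of each whole list would place 1.41 WT and 1.08 KO peaks, and 0 were called in both. A count of 0 there allows up to 42.6 peaks per Mb, above the densities of the lists, 20.0 per Mb in WT and 15.4 in KO. The absence of peaks over the copies was therefore not distinguishable from the list average. In the 0.162 Mb between the copies, WT had 10 peaks (61.6 per Mb, 29.5 to 113) and KO had 2 (12.3 per Mb, 1.49 to 44.5). The whole block, from 103726156 to 103958897, thus had a KO to WT ratio of 0.200 (0.0213 to 0.939), beside 0.770 for the whole lists. This block was singled out after its values were seen.

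The 10 WT peaks of the antitrypsin block had 4 to 9 fragments at the summit. The highest (chr12:103746082-103746299), between Serpina1b and Serpina1d, reached 9 fragments, which is 5.22-fold over the local background. Folds are the authors' values throughout, and background values were calculated here from fold and pileup. The longest space, 75.7 kb between Serpina1d and Serpina1a, held 5 WT peaks and 0 KO peaks. The KO peaks both lay between Serpina1a and Serpina1c, with 4 and 8 fragments. The 8-fragment KO peak (chr12:103890905-103891035) was the highest KO peak of the clade A cluster. With peaks of at least 5 fragments the block held 5 in WT and 1 in KO, where the whole lists had a KO to WT ratio of 0.7075. With a caller q of 0.05 or smaller it held 2 and 1, where the ratio of the lists was 2.20.

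**Figure D1:**
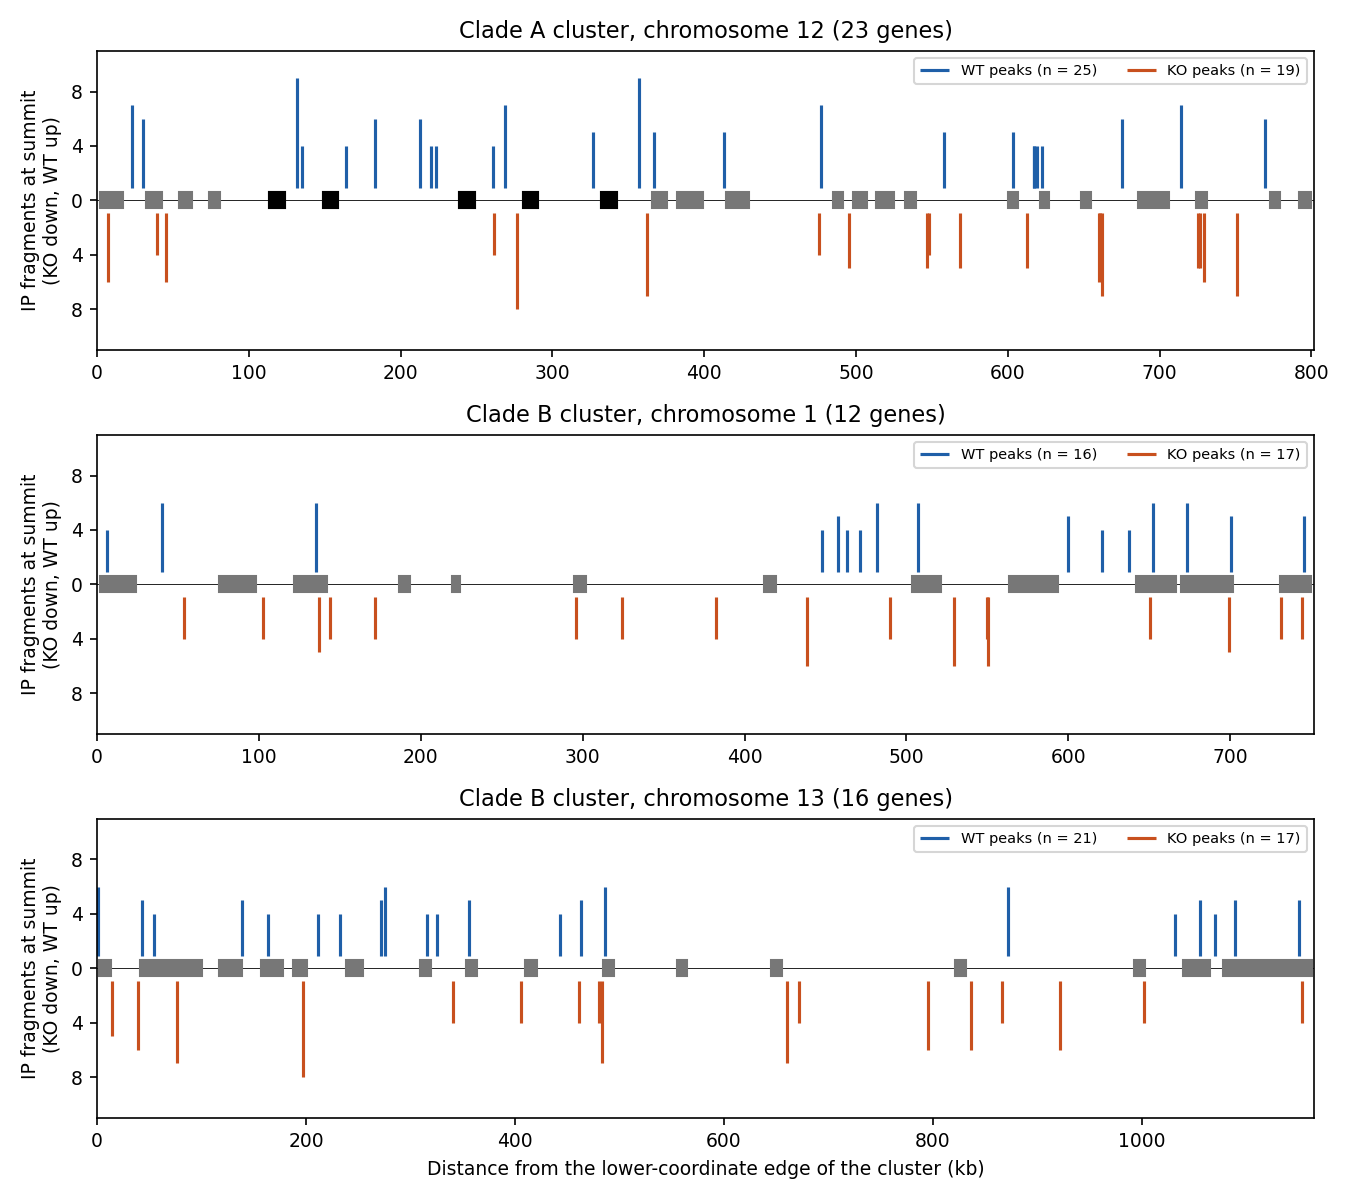
Called peaks in the 3 large serpin clusters. The horizontal axis is the distance in kb from the lower edge of each cluster, grey boxes are serpin genes (black: Serpina1a to Serpina1e), and each vertical line is a peak whose length is the number of IP fragments at its summit, WT upward and KO downward. The black boxes carry no line, while 10 WT and 2 KO lines stand between them.

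Over all 63 serpins, 25 had a WT peak within the gene and 2 kb on both sides, and 18 had a KO peak. In the whole genome 41.6% of protein-coding genes had a WT peak and 29.6% a KO peak, against 39.7% and 28.6% of the serpins. Serpin genes are short, with a median window of 15064 bp against 21169 bp for all genes. The shares of all genes in the same ranges of window length, weighted to the serpins, were 29.2% and 18.5%, so the serpin counts lay above those of genes of like length in both lists, by 25 against 18.4 genes in WT and 18 against 11.6 in KO. Per Mb of window there was no such excess. Serpins held 22.5 WT peaks per Mb (15.2 to 32.1) and 18.8 KO peaks per Mb (12.1 to 27.7), beside 22.9 and 17.5 in all gene windows. The median serpin, like the median gene, had 0 peaks in both lists.

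The excess in the number of genes with a peak came mostly from serpins with windows of 15 to 30 kb, of which there were 25. In this range 12 had a WT peak and 10 a KO peak, 48.0% and 40.0% beside 33.2% and 20.4% of all such genes. Per Mb of window they held 23.09 WT peaks (11.93 to 40.33) and 25.01 KO peaks (13.32 to 42.77). All genes of the range held 20.15 and 12.85. The WT interval included the value of all such genes, and the KO interval lay just above it. This difference was not tested. Among the 30 serpins with windows under 15 kb, 6 and 3 had a peak, 20.0% and 10.0% beside 14.0% and 6.59%. Serpin windows in this range are longer on average than those of all its genes. Per Mb of window these serpins held 16.26 WT and 13.55 KO peaks, beside 18.28 and 8.585 for all genes of the range, so the WT excess was not seen per length. Of the 4 with windows of 30 to 60 kb, 3 had a WT peak (58.7% of all such genes) and 2 a KO peak (39.9%). All 4 serpins over 60 kb (Serpine2, Serpinb1c, Serpini1 and Serpinb6a) had a WT peak, and all but Serpine2 a KO peak, in a range where 88.5% and 74.4% of all genes had one.

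Serpin peaks were as weak as those of the lists at large. The 30 WT peaks had 4 to 7 fragments and the 25 KO peaks 4 to 8, with a median of 5 in both, which is also the median of each list. At least 6 fragments were found in 11 WT peaks (36.7% beside 34.3% of the list) and 8 KO peaks (32.0% beside 29.9%). A caller q of 0.05 or smaller was reached by 1 WT peak and 6 KO peaks, 3.33% and 24.0%, beside 9.53% and 27.2% of the lists. The WT peak was that of Serpini2, and the KO peaks were those of Serpina10, Serpinb9b, Serpinb9f, Serpinc1, Serpind1 and Serpini1. The strongest serpin peak by caller p ranked 1734 of 54397 in WT (Serpini2) and 364 of 41907 in KO (Serpinb9b).

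In position, serpin peaks followed the make-up of the windows, of which 81.1% was gene body. The summit lay between the gene ends in 27 of 30 WT peaks (90%) and 21 of 25 KO peaks (84.0%). Over all protein-coding genes these shares were 94.3% and 95.3%, with 93.8% of the windows gene body. Start sites were listed for 54 of the 63 genes. Within 1 kb of any listed start site lay the summits of 3 WT peaks (10.0%) and 2 KO peaks (8%). In the windows of all protein-coding genes the shares were 2.78% and 1.83%, and in the whole lists, which include peaks outside genes, 1.80% and 1.25%. These shares were not matched for window length. Serpin windows are shorter, with a median of 15064 bp against 21169 bp, so the 1 kb around a start site fills more of them. The difference was not tested. The WT peaks were at Serpinb2, Serpinb9 and Serpina3g, and the KO peaks at Serpinb8 and Serpinb9f.

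Among clade A genes, 6 of 24 had a WT peak and 3 of 24 a KO peak, beside 4.31 and 2.27 genes from the shares of like length. In the other clades 19 and 15 of 39 had one, beside 14.1 and 9.37. Per length of gene window, clade A held 18.1 WT peaks per Mb (6.65 to 39.4) and the others 24.0 (15.4 to 35.7). In KO these densities were 15.1 (4.90 to 35.2) and 20.0 (12.2 to 30.9). The ratio of clade A to the others was 0.756 in both lists, with intervals of 0.253 to 1.90 in WT and 0.222 to 2.08 in KO. At this depth a difference between the clades was not detectable. Both groups lay near the density of all gene windows, 22.9 per Mb in WT and 17.5 in KO.

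**Figure D2:**
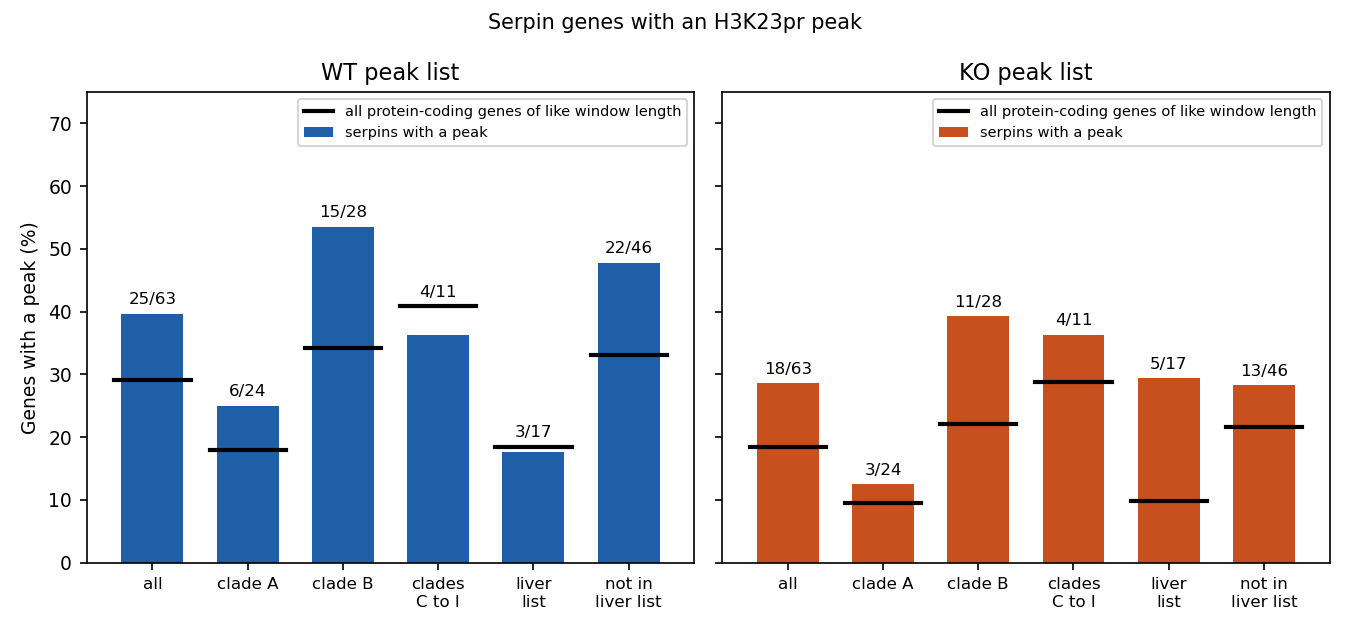
Share of serpin genes with at least 1 peak in the gene and 2 kb on both sides, in percent, for WT (left) and KO (right). Bars give serpin groups with their counts, and the black line at each bar is the share of all protein-coding genes in the same ranges of window length. In the liver list the bar is close to the line in WT (3 of 17) and above it in KO (5 of 17).

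Serpins secreted by the liver had more peaks in KO than in WT, against the trend of the unfiltered lists, but the counts were small. A list of 17 such genes, 12 of clade A and 5 of other clades, was drawn up from general knowledge with earlier results of these data known, among them a KO peak at Serpina3k. In KO, 5 of the 17 had a peak, beside 1.67 from genes of like length, and in WT 3, beside 3.14. They held 8 KO and 3 WT peaks, a ratio of 2.67 with an interval of 0.640 to 15.6 that includes the ratio of the lists. The other 46 serpins held 17 KO and 27 WT peaks, a ratio of 0.630 (0.322 to 1.20). The difference between these ratios was not tested, and without Serpina3k the liver list held 5 KO peaks. With a caller q of 0.05 or smaller it held 3 KO and 0 WT peaks. Under that filter the whole lists also had more peaks in KO, a ratio of 2.20. None of the 12 clade A genes outside the list had a KO peak, beside 1.34 from genes of like length. In WT 3 of them had one, beside 2.45. A count of 0 over their 0.170 Mb allows up to 17.7 peaks per Mb, above the 17.5 of all gene windows in KO.

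Serpina3k, which encodes contrapsin, an abundant plasma serpin of mouse liver, had more KO peaks than any other serpin gene. Its gene on chromosome 12 (104338486 to 104345739) had no WT peak and 3 KO peaks. The KO peaks had 5, 5 and 6 fragments and folds of 3.83, 3.83 and 3.95, all inside the gene and 1198 and 2232 bp apart. Of all 8451 genes with a window under 15 kb, 6 (0.0710%) held 3 or more KO peaks and 7 (0.0828%) 3 or more WT peaks. Serpina3k was picked as the serpin with the most KO peaks, so these shares are a description and not a test. None of the Serpina3k peaks reached a caller q of 0.05. The neighbours Serpina3m and Serpina3n, also plasma serpins of liver, had no peak in either list.

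Serpinc1, Serpind1 and Serpina10, which encode coagulation inhibitors made in liver, had KO peaks and no WT peaks. All 3 windows are 15 to 30 kb long, a range in which 33.2% of all genes had a WT peak and 20.4% a KO peak. Serpinc1 encodes antithrombin, the principal inhibitor of thrombin. Its gene (chromosome 1, 160978583 to 161002543) had a KO peak of 5 fragments with the summit 1258 bp before the start site, and another of 6 fragments 3823 bp after it. Their folds were 3.83 and 4.18, and WT had no peak there. In windows of 15 to 30 kb, 5.27% of all genes held 2 or more KO peaks and 8.77% 2 or more WT peaks.

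Serpind1 encodes heparin cofactor II, a second thrombin inhibitor, and its window overlaps the gene Pi4ka. On chromosome 16 (17331371 to 17343574) it had 1 KO peak of 7 fragments, a fold of 5.10, 3547 bp after its start site, and no WT peak. That peak also lies in the body of Pi4ka, a lipid kinase gene, and cannot be assigned to either gene alone. Serpina10 encodes the protein Z-dependent inhibitor of coagulation factor X. Its only peak was in KO, with 6 fragments and a fold of 4.17.

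Several serpins that act in fibrinolysis, complement and vessel growth had no peak, namely Serpinf2 (the plasmin inhibitor alpha-2-antiplasmin), Serping1 (the C1 inhibitor) and Serpinf1 (an antiangiogenic factor). Serpinh1, a collagen chaperone of stromal cells, had none either. Their windows are short, 11766 to 16595 bp for Serpinf2 and Serpinf1, so a gene without a peak is the common case in this range.

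The hormone carriers had 3 peaks in all. Serpina6 encodes corticosteroid-binding globulin. It had a WT peak of 6 fragments (4.06-fold) below its lower end and a KO peak of 4 fragments (3.19-fold) inside the gene, 9373 bp away. Serpina7, on the X chromosome, encodes thyroxine-binding globulin and had 1 WT peak of 5 fragments (3.55-fold) and no KO peak.

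The remaining clade A peaks were all in WT, with 4 or 5 fragments. Serpina11 had 5 fragments and a fold of 3.11, and Serpina12, which encodes vaspin, an adipokine, had 5 fragments and a fold of 2.89. Serpina3f and Serpina3g had 5 and 4 fragments, at folds of 3.55 and 2.91. The clade A genes without a peak were Serpina1a to Serpina1e, Serpina1f, Serpina3a, Serpina3b, Serpina3c, Serpina3i, Serpina3j, Serpina3m, Serpina3n, Serpina5, Serpina9 and Serpina16. No peak touched the windows of the 6 serpin pseudogenes, 5 of which lie in the same cluster.

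**Figure D3:**
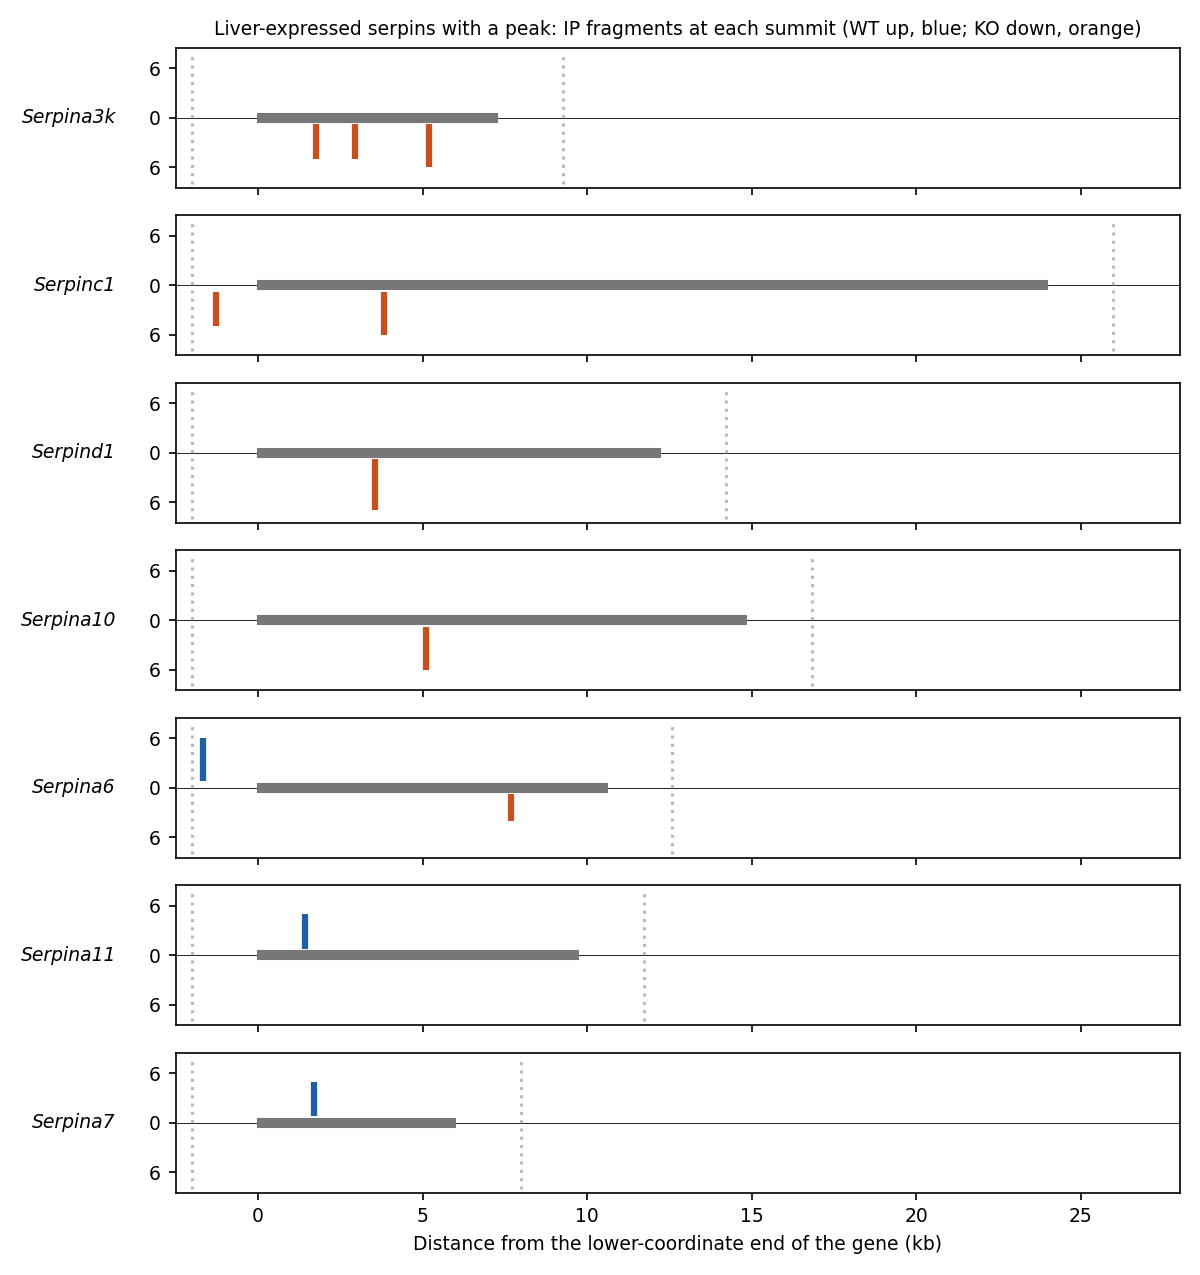
The 7 genes of the liver list that had a peak. The horizontal axis is the distance in kb from the lower-coordinate end of each gene (grey bar; dotted lines 2 kb beyond it), and each coloured line is a peak with its IP fragments at the summit, WT upward in blue and KO downward in orange. Serpina3k, Serpinc1, Serpind1 and Serpina10 have KO lines only, Serpina11 and Serpina7 WT lines only, and Serpina6 has both.

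The intracellular serpins of clade B made up most of the serpins with a peak. In WT 15 of the 28 had one and in KO 11, 53.6% and 39.3%, beside 34.2% and 22.2% for genes of like length. In clades C to I 4 of 11 had one in each list, beside 40.9% and 28.7%, and the differences between clades were not tested. The clade B density of 27.0 WT peaks per Mb (16.0 to 42.7) and 19.5 KO peaks per Mb (10.4 to 33.4) held that of all gene windows within its interval. Of the 11 serpins with a peak in both lists, 8 were of clade B. Over all genes 21.6% had peaks in both lists, above the 11 of 63 serpins, and 50.4% had none in either, close to 31 of 63. By window length, 1 of 30 serpins under 15 kb had peaks in both lists (1.38% of all such genes), 5 of 25 from 15 to 30 kb (8.85%), 2 of 4 from 30 to 60 kb (27.6%) and 3 of 4 over 60 kb (68.8%).

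Serpinb2, which encodes the plasminogen activator inhibitor of macrophages, was the only one of the 54 serpin genes with a listed promoter whose promoter window overlapped a peak. The WT peak, chr1:107511443-107511542, had 6 fragments and a fold of 4.06, and its summit lay 5 bp after the listed start site at 107511510. The bases around this start site, with the start base in capitals, are shown because a start site under a summit was found at no other serpin:
Serpinb2, chr1:107511500-107511529, plus strand: tcccccgagcAtctctagtgaatccagggc
The RefSeq table also lists a start at 107511423 for this gene, 92 bp before the summit. The KO peak of Serpinb2, with 4 fragments, lay 1971 bp from the WT summit and upstream of both starts, inside the gene's outer bounds.

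The serpins of granzyme defence are a family of near copies on chromosome 13 around Serpinb9, the inhibitor of granzyme B. Serpinb9b held the strongest serpin peak of the KO list, with 8 fragments, a fold of 5.74 and a caller −log10 q of 3.04, and no WT peak. Serpinb9f had a KO peak of 7 fragments (5.10-fold) 734 bp before its start site and a WT peak of 6 fragments (2.86-fold) 1926 bp after it. Its promoter and that of Serpinb9e share a run of 165 identical bases out of 250, and 53.9% of the 71-base runs of the Serpinb9f promoter recur exactly in another serpin promoter. The KO peak lay upstream of these 250 bases. Serpinb9, Serpinb9c and Serpinb9d had 1 WT peak each, of 4, 4 and 5 fragments, and Serpinb9e, Serpinb9g and Serpinb9h had none in either list.

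Other leukocyte serpins of chromosome 13 had peaks of 4 to 7 fragments, none shared between the lists. Sharing was rare everywhere, at 0.853% of WT peaks and 1.10% of KO peaks. Serpinb1a encodes an inhibitor of neutrophil proteases. It had a WT peak of 6 fragments and a KO peak of 5, in opposite flanks and 13961 bp apart. In its paralog Serpinb1c, 2 WT peaks of 4 and 5 fragments lay 21898 bp or more from a KO peak of 7. That KO peak had a fold of only 3.14, since its background of 1.55 fragments was the highest at any serpin peak in KO. Serpinb6a, another inhibitor of granule proteases, had 2 WT peaks of 5 fragments and 1 KO peak of 4, 2524 bp from the nearer. Serpinb6b and Serpinb6c had 1 WT peak of 5 fragments each, and Serpinb6e 1 KO peak of 4.

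On chromosome 1 the clade B genes include serpins of skin and other epithelia. Serpinb10 had WT peaks of 6 and 5 fragments and a KO peak of 5. Serpinb13, an inhibitor of cathepsins in keratinocytes, had a WT peak of 6 fragments and KO peaks of 5 and 4. Serpinb8, an inhibitor of furin, had a WT peak of 5 fragments and 2 KO peaks of 4. The closest WT and KO summits were 1521, 1832 and 887 bp apart in these 3 genes, so none of the peaks overlapped. Serpinb5 (maspin) had 1 WT peak of 4 fragments, Serpinb11 1 WT peak of 6, and Serpinb3b 1 KO peak of 4. Serpinb3a, Serpinb3c, Serpinb3d, Serpinb7 and Serpinb12 on this chromosome had no peak, nor did Serpinb1b and Serpinb6d on chromosome 13.

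Serpins of nerve and matrix closed the set. Serpini1 encodes neuroserpin, an inhibitor of tissue plasminogen activator in brain. It is the longest serpin gene (chromosome 3, 75557493 to 75642523) and had the most WT peaks, 3 with 4, 6 and 6 fragments, and 2 KO peaks with 6 and 5. Its neighbour Serpini2, a serpin of pancreas, had the strongest WT serpin peak, with 7 fragments, a fold of 4.73 and a −log10 q of 1.57. Serpine2, the protease nexin of the extracellular matrix, had 1 WT peak of 6 fragments with a fold of 2.86 over a background of 1.45. That background, the highest at a serpin peak in WT, also stood under peaks of Serpinb9f and Serpini1.

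At 1 serpin site alone the lists overlapped. In Serpine3, a WT peak of 4 fragments (chr14:62688349-62688486) and a KO peak of 4 fragments (chr14:62688402-62688474) shared 73 bp, with summits 22 bp apart. Scaled to the IP fragments of each library, the KO to WT ratio at the summit was 0.880, with an interval of 0.164 to 4.73. The site also lies in the body of Ints6, a subunit gene of the Integrator complex. A second KO peak of Serpine3 had 5 fragments.

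Most serpins lie in 3 clusters, and joining members less than 500 kb apart allowed the DNA between them to be counted. The clade A cluster on chromosome 12 (103614675 to 104416334) holds 23 serpins and no other protein-coding gene. It had 25 WT and 19 KO peaks, a ratio of 0.760 (0.396 to 1.44). Only 5 peaks in each list touched a serpin window, and 20 in WT and 14 in KO lay between the genes. Of these, 10 WT and 2 KO peaks were those of the antitrypsin block, which was singled out after its values were seen. Between the genes the density was 41.6 per Mb (25.4 to 64.3) in WT and 29.1 (15.9 to 48.9) in KO, and over the gene windows it was 15.6 (5.06 to 36.3) in both. The intervals of the spaces and the windows overlapped in both lists. The interval of the WT spaces lay above the list's 20.0 per Mb and the 22.9 of all gene windows. That of the KO spaces lay just above the list's 15.4 but included the 17.5 of all gene windows. The 1 Mb on the lower and upper sides of the cluster held 26 and 20 WT peaks and 16 and 7 KO peaks. The density on the lower side thus lay just within the interval of the spaces in both lists, and that on the upper side lay below it in both.

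In the clade B clusters the intervals of the spaces between the genes included the list densities in both genotypes. On chromosome 1 (106859175 to 107610978, 12 genes) there were 16 WT and 17 KO peaks, a ratio of 1.06 (0.505 to 2.25). The spaces held 18.4 WT and 20.4 KO peaks per Mb, and the gene windows 26.7 in both. On chromosome 13 (32840092 to 34004794, 16 serpins with Nqo2 and Ripk1) there were 21 WT and 17 KO peaks, a ratio of 0.810 (0.401 to 1.61). There the spaces held 13.1 and 14.5 per Mb and the gene windows 27.3 and 14.9. The difference between the clade A and clade B clusters was not tested.

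Long stretches of the clusters had no peak in 1 genotype. In WT the longest ran for 386 kb on chromosome 13, from 33326026 to 33711980, past Serpinb9h, Serpinb9g and Serpinb6d, where the list density would place 7.71 peaks. Another of 312 kb on chromosome 1 covered Serpinb3a to Serpinb3d. In KO the longest stretch was in the clade A cluster, 216 kb from 103659935 to 103876257, and held Serpina16, Serpina1f, Serpina1b, Serpina1d and Serpina1a. These stretches were picked as the longest of each cluster, so their lengths are a description.

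The clade I pair held as many KO peaks as each clade B cluster, in a shorter span. The pair on chromosome 3 spans 0.404 Mb with Wdr49 and Pdcd10 and held 13 WT and 17 KO peaks, a ratio of 1.31 (0.598 to 2.93). Of these, 9 WT and 15 KO peaks lay outside the windows of Serpini1 and Serpini2, at 31.8 per Mb (14.5 to 60.3) and 52.9 per Mb (29.6 to 87.3). The KO interval lay above the list's 15.4 per Mb, and the WT interval included 20.0. The clade F pair on chromosome 11 had none. Over all clusters and single genes there were 78 WT and 75 KO peaks, a ratio of 0.962 (0.691 to 1.34) whose interval included the 0.770 of the lists.

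**Figure D4:**
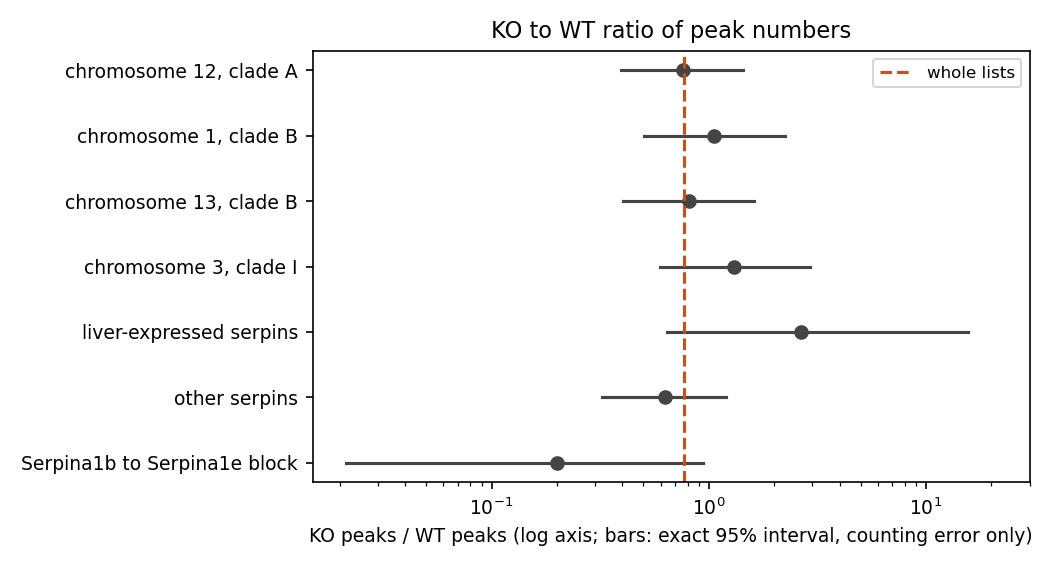
KO to WT ratio of peak numbers (points, log axis) with exact 95% intervals for counting error (bars), for serpin groups and clusters. The dashed line is the ratio of the whole lists, 0.770; every interval crosses it, and the antitrypsin block (0.200) and the liver list (2.67) have the lowest and the highest points.

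The proteases that serpins inhibit, or that act in the same cascades, were counted as the other side of the pathway. Of 27 such genes, 5 had a WT peak, beside 8.29 from genes of like length, and 11 a KO peak, beside 5.23. Those of WT were Ctss, Klkb1, Masp1, Plg and Proc. In KO they were C1s1, Ctsl, Ctss, F11, F9, Gzmb, Klkb1, Masp1, Masp2, Plat and Plg. Ctss, Klkb1, Masp1 and Plg were thus in both lists. The WT count lay under the background and the KO count above it. Hepatocyte markers also had more genes with a peak in KO, 7 of 10, than in WT, 4 of 10, where the WT count was near its background of 4.10. All the other marker lists had fewer genes with a peak in KO than in WT. Their backgrounds were lower in KO too, so a lower KO count is the common case. Differences between the marker lists were not tested. The proteases held 8 WT and 16 KO peaks in all, and the difference was not tested.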

How the data were processed

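Liver H3K23pr ChIP-seq was represented by the narrow peak lists of 1 WT and 1 KO IP library, each called against its own input. The submitters' processing notes name cutadapt 1.9.3, Bowtie2 2.2.4 and the build mm10. The peak caller was MACS2 2.1.1.20160309 with a p cutoff of 0.001, per the file headers. The pileup in the deposited lists is a signal, the number of IP fragments at the summit. The deposited fold is a ratio of pileup to local background with 1 added to both. The p-value and q-value are deposited by the authors as −log10 values. Input held 9385834 fragments in WT and 10000823 in KO after filtering. A summit of 5 fragments, the median, gives each peak wide counting error, and without molecular identifiers fragments are not independent molecules.

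Gene bounds and promoters came from RefSeq tables of GRCm38.p6, which is mm10, without exons, so exon and UTR positions were not used here. Start sites were listed for 54 of 63 members. A gene had a peak when 1 bp of a peak fell between its start minus 2 kb and its end plus 2 kb, and each peak counted once per group or cluster. Background shares were taken over all protein-coding genes in the same ranges of window length, bounded at 15, 30 and 60 kb. Like length means the same range only, and lengths within a range were not matched. Under 15 kb the serpin windows are longer on average than those of all genes, which lowers the background beside them. Intervals were exact Poisson for counts and densities and Clopper-Pearson for ratios, at 95%. A count of 0 was given the limit of 3 counts. The density of a whole list is its peaks over 2722 Mb, the chromosomes up to their last peak. That span is longer than the effective genome size of 1870000000 bp set for the caller, so list densities are low estimates for DNA that can be aligned. Python 3.11.15, pandas 2.3.3, numpy 2.4.6 and scipy 1.17.1 were used, and counting in windows was tested on simulated data, where 200 of 200 genes matched.

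Members, gene lists and comparisons were chosen with earlier results of these data known. Named with values were the members with peaks in both lists, those with the most peaks, the strongest of each clade, and fixed liver, coagulation and stromal serpins. Ties at 1 peak made the rule name every member with a peak. Alternatives were stricter peak filters, other flanks, gene ends only, midpoints, equal list sizes, other cluster gaps and other overlap rules. The values of 1 member are not reported here by name.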

Additional observations from a re-analysis of the deposited data

How the results depend on the processing

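Of 121 values recomputed under alternatives, 88 stayed within 1.5 times the count or within the interval of the reported value, and 33 moved. The intervals of the ratios are wide, so a ratio that stayed could still change direction. The ratio of clade A to the others, 0.756 in both lists, ran from 0.302 to 1.38 in WT among values that stayed. In KO it ran from 0.605 to 1.55. Of 301 counts for single genes, 178 stayed and 123 moved. Stricter filters lowered the counts by construction. With at least 6 fragments there were 11 WT and 8 KO serpin peaks in 10 and 8 genes, 2 of them in both lists, and the liver list held 1 and 4. With at least 5 fragments there were 16 KO peaks and 6 genes in both lists. The chromosome 1 ratio was 0.5 under each of these filters, and that of chromosome 13 was 2.0 with at least 6. With a caller q of 0.05 or smaller, 1 WT and 6 KO peaks remained in 1 and 6 genes, 0 in both lists, the liver list held 0 and 3, the WT ratio of clade A to the others was 0, and the KO to WT ratio over all clusters was 2.67 (1.20 to 6.52), beside 2.20 for the whole lists. With the strongest 20000 peaks of each list there were 11 WT and 13 KO peaks, 10 and 10 genes, 4 in both lists, and 1 WT peak in the liver list. With gene ends only, 10 and 8 genes had a peak, 2 in both lists. With 5 kb flanks the liver list held 6 WT peaks. Added after seeing the data, leaving out Serpina3k left 5 KO peaks in the liver list, and member windows alone gave a chromosome 3 ratio of 0.5.

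The chromosome 1 ratio had no value under the q filter, with 0 WT peaks, nor the chromosome 3 ratio with a 200 kb gap, which splits the pair. No paired analysis was possible because each genotype had 1 IP library and no test was run. Depth limits every gene: most peaks rest on a few fragments, so a serpin without a called peak is not shown to lack the mark. The lists differ in fragment size and local background, which cannot be told apart from genotype.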
